A study of Mus musculus with 58 samples.

Results

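The response of the juvenile mouse prefrontal cortex to early lithium was compared between Tanc2 genotypes, gene by gene, in bulk RNA sequencing libraries. The quantity described is the interaction: the log2 difference, lithium minus vehicle, in mice labelled heterozygous (HT) for Tanc2, minus the same difference in mice labelled wild type (WT), with females and males weighed equally. A positive interaction means that the lithium difference lay further up in HT-labelled mice, and a negative one that it lay further down. It was taken over 38 of the 58 libraries of the series and over all genes with a value of 10 or more in at least 4 libraries, 17925 of 18088. The libraries came from C57BL/6J mice and fell into 9 HT lithium (5 females and 4 males), 10 HT vehicle (5 and 5), 10 WT lithium (5 and 5) and 9 WT vehicle mice (5 and 4). Pups of all 4 groups were dosed through the milk of their dams over 3 weeks, on postnatal days 3 to 24, and the tissue was taken on day 25. The labels name no litter, so p-values measure the spread between mice treated as independent, although a drug given in milk reaches a whole litter. The kind of Tanc2 mutation is not in the labels.

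Tanc2 encodes a large scaffold protein of the postsynaptic side of excitatory synapses, where it binds other scaffolds and signalling enzymes. Lithium is a mood stabiliser whose best known direct targets are glycogen synthase kinase 3 (GSK3), a kinase that marks beta-catenin for destruction in the WNT pathway, and the phosphatases that recycle inositol. Immediate early genes, which neurons transcribe within minutes of synaptic activity and without new protein synthesis, are a common readout of recent activity in cortex.

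Recovered totals ran from 24060600 to 30522200 reads per library, with a median of 28155000. All 58 sex labels matched sex-linked transcripts. Reads of the pseudogene Gm10221 were present in all 19 lithium libraries and in 0 of the 19 vehicle libraries. Their median was 203 normalized reads in HT lithium and 180 in WT lithium mice. The mitochondrially coded mt-Atp6 had medians of 50741 normalized reads in HT lithium, 22913 in HT vehicle, 43670 in WT lithium and 20235 in WT vehicle mice. The 13 mitochondrially coded genes did not share such a rise as a set. Their median log2 lithium difference was 0.016 in HT mice, where 2 were called higher and 3 lower (8.25% and 8.03% of all genes). In WT mice it was -0.016, with 1 called higher and 4 lower (4.34% and 3.13%). Calls are at a limma adjusted p under 0.05. A factor that adds equally to both lithium groups is subtracted out in the interaction, but not in the lithium effects of either genotype, where it cannot be told apart from the drug. Cortical layer markers were present, with a mean of 3575 normalized reads for the deep layer factor Tbr1 and 3075 for the upper layer factor Cux2. Scores of striatal neuron markers, mean log2 deviations over 26 genes, stood apart in 3 lithium libraries. They reached 1.65 in HT lithium female 2, 1.61 in WT lithium male 3 and 0.93 in WT lithium male 1, against at most 0.27 in the other 35.

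Tanc2 itself (ENSMUSG00000053580, GRCm38 chr11:105589986-105929304) did not check the genotype labels. Its normalized reads, given here and below as lowest, median and highest library, were 6240, 8220 and 9106 in HT lithium, 7683, 7984 and 8636 in HT vehicle, 6904, 7427 and 8024 in WT lithium, and 6939, 7680 and 8005 in WT vehicle mice. The groups overlapped, and the HT-labelled groups were not lower. The interaction was -0.01 ± 0.06 on the log2 scale (SE; limma adjusted p = 0.999; 95% interval -0.14 to 0.11). The groups are therefore called HT-labelled and WT-labelled below.

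No gene passed for the interaction. With limma and a Benjamini-Hochberg adjusted p under 0.05 as the threshold, 0 of 17925 genes were called (0%), and the smallest adjusted p was 0.193. At an unadjusted p under 0.05 there were 1196 genes (6.67%), 668 of them positive (3.73%) and 528 negative (2.95%). edgeR's quasi-likelihood test on the recovered reads also called 0 genes and gave 1196 with an unadjusted p below the same limit. DESeq2 called 4. The median SE of an interaction was 0.0998 on the log2 scale. All genes below are therefore described by their values, and their direction is that of the estimate.

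The smallest p belonged to Cbx7 (ENSMUSG00000053411, GRCm38 chr15:79915807-79971119, minus strand), a chromodomain subunit of the Polycomb repressive complex that binds methylated histone H3 and keeps genes silent. It had 749, 820 and 888 normalized reads in HT lithium and 896, 998 and 1061 in HT vehicle mice, against 841, 893 and 965 in WT lithium and 840, 898 and 944 in WT vehicle mice. The HT groups did not overlap, while the WT groups covered the same range, and HT vehicle was the high group and HT lithium the low one. Cbx7 fell by 0.25 ± 0.04 with lithium in HT-labelled mice (limma adjusted p = 4.64e-06) and differed by 0.01 ± 0.04 in WT-labelled mice (limma adjusted p = 0.939). The interaction was -0.26 ± 0.05 (SE; 95% interval -0.36 to -0.15; limma adjusted p = 0.193). It was -0.29 in females and -0.22 in males. Cbx7 was picked on the mean of these values, which favours a shared sign. The same holds for the values by sex of other genes picked on their interaction. The fall of Cbx7 in HT-labelled mice lowers its interaction, so that fall also follows in part from the pick. HT minus WT, Cbx7 differed by -0.12 under lithium and by 0.14 under vehicle, so that both arms entered the value. Its adjusted p was 0.00954 with DESeq2 and 0.0428 with 2 surrogate variables added to limma. It was 0.0344 by limma with olfactory bulb and striatal marker scores as covariates, a fit chosen after seeing the data. Cbx7 passed in these 3 alternative fits and did not pass in the other 50. When each library was left out in turn, its limma adjusted p was 0.0525 to 0.575.

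Among the genes with the smallest p and a negative interaction, 4 rose with lithium in WT-labelled mice without passing in HT-labelled mice. Tnfrsf12a, the receptor of the cytokine TWEAK, had 61.2, 95.8 and 118 normalized reads in HT lithium and 76.6, 87.9 and 103 in HT vehicle mice, against 86.5, 115 and 143 in WT lithium and 72.8, 79.5 and 91.5 in WT vehicle mice. The WT groups overlapped in their outer libraries only, and the HT vehicle range lay inside the HT lithium range. Its lithium difference was 0.05 ± 0.09 in HT-labelled mice (limma adjusted p = 0.740) and it rose by 0.50 ± 0.09 in WT-labelled mice (limma adjusted p = 0.000114), for an interaction of -0.45 ± 0.12 (adjusted p = 0.497). Grasp, a scaffold that links metabotropic glutamate receptors to trafficking proteins and is induced by activity, had 1160, 1476 and 1999 normalized reads in HT lithium and 1271, 1407 and 1582 in HT vehicle mice, against 1450, 1802 and 2248 in WT lithium and 1129, 1296 and 1439 in WT vehicle mice. All 10 WT lithium mice lay above all 9 WT vehicle mice, while the HT groups overlapped over the whole vehicle range. The Grasp interaction was -0.35 ± 0.10 (limma adjusted p = 0.497), with lithium differences of 0.11 ± 0.07 in HT-labelled and 0.46 ± 0.07 in WT-labelled mice (limma adjusted p = 1.68e-05 in WT). Ptpn1, the phosphatase that switches off the insulin and leptin receptors, had an interaction of -0.19 ± 0.06, and Ppp1r12c, a targeting subunit of myosin phosphatase, one of -0.17 ± 0.05. For Ptpn1 the limma adjusted p of the lithium effect was 0.331 in HT-labelled and 0.0372 in WT-labelled mice, and for Ppp1r12c it was 0.544 in HT-labelled and 0.0108 in WT-labelled mice. A threshold met in one genotype and missed in the other does not show a difference between them, and the test of that difference passed for none of the 4.

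The other negative interactions belonged to genes that fell with lithium in HT-labelled mice. A fall there, like a rise in WT-labelled mice, lowers the interaction, so these directions follow in part from how the genes were picked. Farp1, a regulator of dendrite growth and synapse formation, had 2493, 2662 and 2980 normalized reads in HT lithium and 2782, 2935 and 3141 in HT vehicle mice, against 2729, 2843 and 3100 in WT lithium and 2647, 2744 and 2979 in WT vehicle mice. Its groups overlapped, with HT vehicle at the top of the range. The Farp1 interaction was -0.17 ± 0.04 (limma adjusted p = 0.442), from a lithium difference of -0.11 ± 0.03 in HT-labelled and 0.07 ± 0.03 in WT-labelled mice. Arhgap17 had an interaction of -0.29 ± 0.08. Hdhd5 had one of -0.24 ± 0.07, and the zinc transporter gene Slc39a13 one of -0.16 ± 0.05. Ankzf1, which releases stalled peptides in ribosome quality control, fell with lithium in both genotypes, by 0.39 ± 0.04 in HT-labelled mice (limma adjusted p = 5.89e-09) and by 0.19 ± 0.04 in WT-labelled mice (adjusted p = 0.00268). Its interaction was -0.20 ± 0.06 (limma adjusted p = 0.497).

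**Figure D1:**
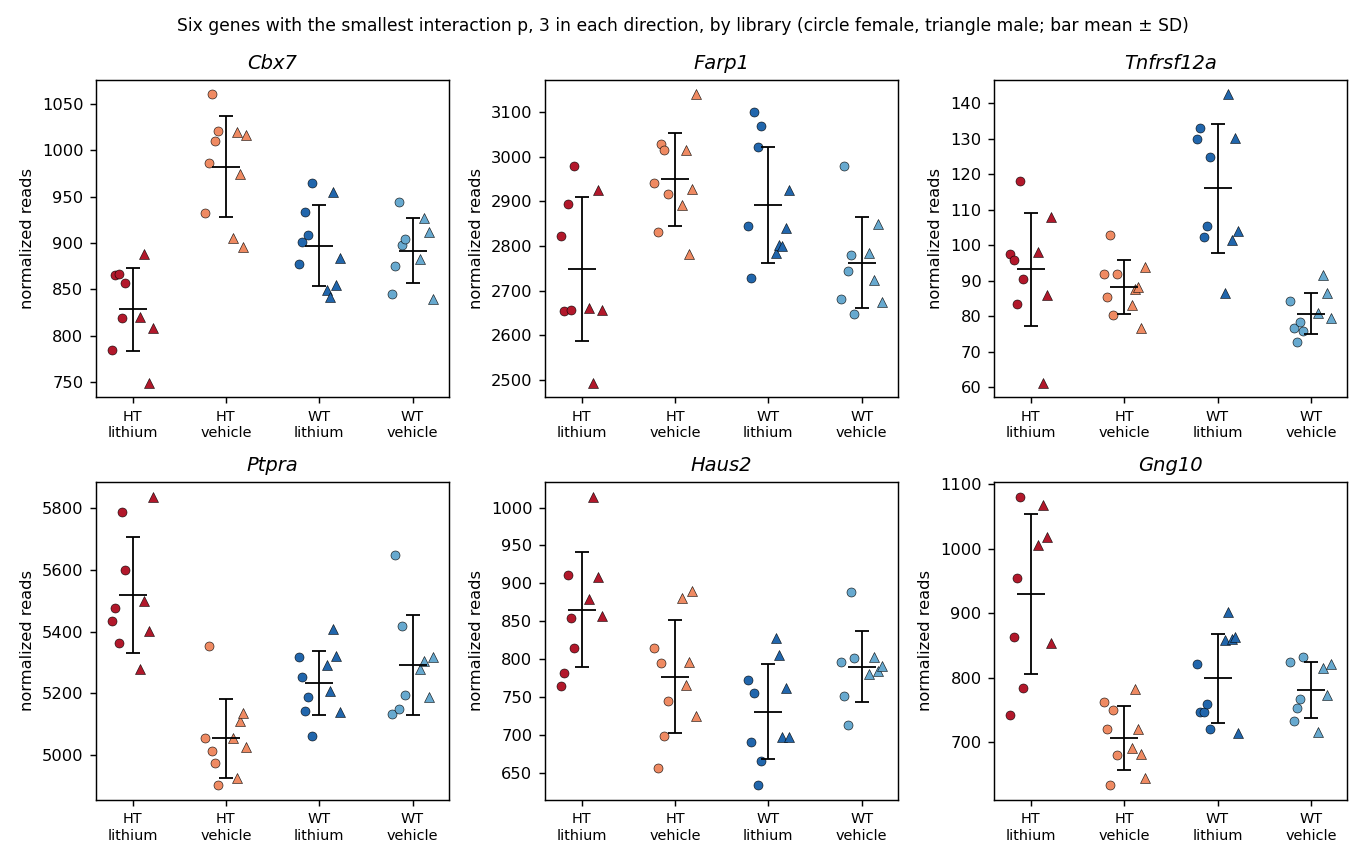
Normalized reads (y axes, each with its own range and none starting at 0) of 3 genes with negative and 3 with positive interactions, by library, in HT lithium, HT vehicle, WT lithium and WT vehicle mice. Circles are females, triangles are males, and bars give the mean and SD. For Cbx7 the HT lithium libraries lie at 749 to 888 and the HT vehicle libraries at 896 to 1061, with both WT groups at 840 to 965.

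The 10 genes with the smallest p and a positive interaction all rose with lithium in HT-labelled mice, and none of them passed in WT-labelled mice. This follows in part from how they were picked, since a large lithium difference in HT-labelled mice raises the interaction. Ptpra (ENSMUSG00000027303, GRCm38 chr2:130450278-130556124), a receptor-type tyrosine phosphatase that activates Src family kinases, had 5278, 5475 and 5837 normalized reads in HT lithium and 4902, 5041 and 5354 in HT vehicle mice, against 5062, 5230 and 5409 in WT lithium and 5133, 5277 and 5647 in WT vehicle mice. The HT groups overlapped in their outermost libraries only, whereas the WT groups shared most of their range. Its interaction was 0.14 ± 0.03 (SE; 95% interval 0.07 to 0.21; limma adjusted p = 0.442). Gng10, a gamma subunit of heterotrimeric G proteins, had 742, 954 and 1081 normalized reads in HT lithium and 633, 705 and 782 in HT vehicle mice, against 714, 790 and 901 in WT lithium and 715, 773 and 832 in WT vehicle mice. HT lithium was the high group with some overlap, and HT vehicle the low one. The Gng10 interaction was 0.37 ± 0.09 (limma adjusted p = 0.442), with 0.35 in females and 0.38 in males. Haus2, a subunit of the augmin complex that branches microtubules, had an interaction of 0.28 ± 0.07, and Dstn, the actin severing protein destrin, one of 0.16 ± 0.04.

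Npm1, Pdia3, Cct8, Dars, Ube2v2 and Atg10 were the others of the 10. Npm1, a nucleolar chaperone of ribosome assembly, had 3180, 3371 and 3685 normalized reads in HT lithium and 2949, 3114 and 3298 in HT vehicle mice, against 2811, 3048 and 3524 in WT lithium and 2894, 3200 and 3309 in WT vehicle mice. The groups overlapped, with HT lithium highest at the median. Its interaction was 0.19 ± 0.05 (limma adjusted p = 0.486), and with 2 surrogate variables added it was 0.19 with adjusted p = 0.0428. Pdia3, a disulfide isomerase of the endoplasmic reticulum, had 5668, 6093 and 6346 normalized reads in HT lithium and 4828, 5229 and 5594 in HT vehicle mice, against 5238, 5553 and 6080 in WT lithium and 5038, 5314 and 5903 in WT vehicle mice. The HT groups did not overlap and the WT groups did. Its interaction was 0.17 ± 0.05 (limma adjusted p = 0.486), with 0.25 in females and 0.10 in males. Cct8, a subunit of the cytosolic chaperonin, had an interaction of 0.21 ± 0.06, and Dars, the cytosolic aspartyl-tRNA synthetase, one of 0.23 ± 0.06. Ube2v2, a partner of ubiquitin conjugating enzymes, had one of 0.22 ± 0.06, and Atg10, which joins the autophagy proteins Atg12 and Atg5, one of 0.40 ± 0.10.

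Lithium-responsive genes were then taken from the lithium effect averaged over both genotypes, a contrast that is uncorrelated with the interaction when libraries are equally variable. For that averaged effect 4351 of 17925 genes passed by limma (24.3%), 2164 higher (12.1%) and 2187 lower (12.2%). Within a genotype 2919 passed in HT-labelled mice (16.3%), 1479 higher and 1440 lower, and 1339 in WT-labelled mice (7.47%), 778 higher and 561 lower. Of these, 503 were higher in both, which is 34.0% of those higher in HT-labelled and 64.7% of those higher in WT-labelled mice. Another 342 were lower in both, 23.8% of those lower in HT-labelled and 61.0% of those lower in WT-labelled mice, and 1 gene was called in opposite directions. HT and WT lithium differences share no library, and across all genes they correlated at r = 0.60. The presence of Gm10221 reads separates lithium from vehicle libraries in both genotypes, and its part in this value was not tested.

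For most lithium-responsive genes the estimated change was slightly larger in HT-labelled mice. Signed by the direction of the averaged effect, the interaction was above 0, meaning a larger change in HT-labelled mice, for 2886 of the 4351 genes (66.3%), with a median of 0.037, against 57.9% and 0.021 over all genes. The median size of the lithium difference was 0.181 in HT-labelled and 0.143 in WT-labelled mice on the log2 scale. Genes lowered by lithium had a median signed interaction of 0.049 and genes raised by it one of 0.029. At an unadjusted interaction p under 0.05 there were 399 of the 4351 (9.17%), and the change was larger in HT-labelled mice for 332 of them and smaller for 67. Over all genes there were 1196 (6.67%), with a larger change in HT-labelled mice for 827 and a smaller one for 369. The excess rested in part on 1 library: without HT lithium female 4 the median signed interaction was 0.020, the lowest of 38 such values, which reached 0.047. In that setting 2216 genes passed in HT-labelled mice and 1620 in WT-labelled mice.

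The genes with the smallest p for the averaged lithium effect had differences of the same sign in both genotypes. A pick on the average of both genotypes favours this. Scand1, which encodes a SCAN domain protein, had 247, 328 and 460 normalized reads in HT lithium and 116, 149 and 188 in HT vehicle mice, against 254, 352 and 426 in WT lithium and 123, 147 and 192 in WT vehicle mice. In neither genotype did the lithium and vehicle libraries overlap. It rose by 1.17 ± 0.14 in HT-labelled and by 1.18 ± 0.14 in WT-labelled mice (limma adjusted p = 1.12e-07 in each), with an interaction of 0.00 ± 0.20 and a 95% interval of -0.41 to 0.40. Cox5b, a nuclear-coded subunit of cytochrome c oxidase, had an interaction of -0.02 ± 0.07 with an interval of -0.15 to 0.11, and Ndufv2, a complex I subunit, one of 0.07 ± 0.06 with an interval of -0.05 to 0.20. H1fx, a linker histone gene, had one of -0.12 ± 0.11, and Rpl37rt, a retroposed copy of a ribosomal protein gene whose reads may be shared with its parent, one of -0.14 ± 0.13. Among genes lowered by lithium, Mllt6, a chromatin protein gene known from leukaemia fusions, had 3459, 3722 and 4187 normalized reads in HT lithium and 4412, 4867 and 5124 in HT vehicle mice, against 3623, 3976 and 4216 in WT lithium and 4325, 4570 and 4844 in WT vehicle mice. Lithium and vehicle libraries were apart in both genotypes. The Mllt6 interaction was -0.14 ± 0.05 (SE; 95% interval -0.23 to -0.05; limma adjusted p = 0.559). Gramd1a, a sterol transfer protein gene, had an interaction of -0.12 ± 0.05 and Pkd1, the polycystin gene, one of -0.09 ± 0.04, while that of Taf15, an RNA binding protein gene, was 0.12 ± 0.07, with a smaller fall in HT-labelled mice.

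**Figure D2:**
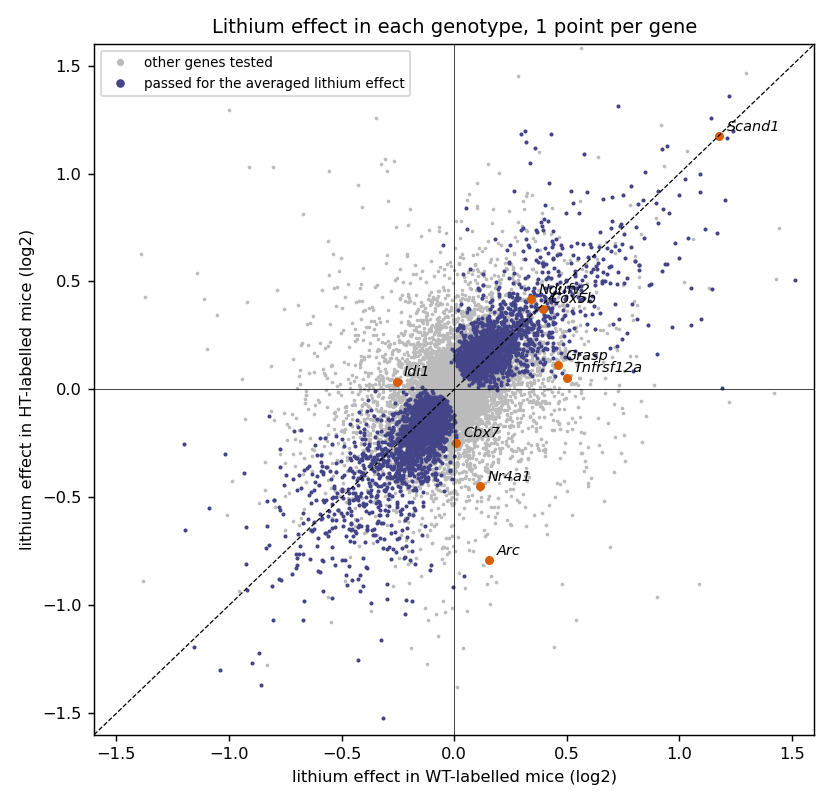
Lithium minus vehicle log2 difference of each of 17925 genes in HT-labelled mice (y axis) against that in WT-labelled mice (x axis). Dark points passed for the averaged lithium effect, orange points are named genes, the dashed line marks equal differences, and 45 genes lie outside the axes. Cbx7, Nr4a1 and Arc lie below the line, at -0.25, -0.45 and -0.79 for HT-labelled mice, and Scand1 lies on it.

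Immediate early genes were the list farthest from 0 among 40 lists of pathways and cell type markers. Of 47 tested members 41 had a negative interaction (50.5% of all genes did), 13 of them with an unadjusted p under 0.05, and 0 had a positive one with such a p. The shares are 27.7% of the list and 6.67% of all genes at that p. The list median was -0.23, against -0.001 over all genes. Its lithium difference had a median of -0.07 in HT-labelled mice, where 2 members rose and 7 fell (8.25% and 8.03% of all genes did), and of 0.16 in WT-labelled mice, where 6 rose and 0 fell (4.34% and 3.13%). HT minus WT, the median was -0.11 under lithium and 0.12 under vehicle. The median interaction was -0.26 in females, with 41 of 47 members below 0 (50.4% of all genes), and -0.20 in males, with 40 of 47 (49.6%).

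Arc (ENSMUSG00000022602, GRCm38 chr15:74669083-74672570), whose protein drives removal of AMPA receptors from synapses, had the largest negative interaction of the list. It had 1055, 2215 and 4538 normalized reads in HT lithium and 2011, 3715 and 6148 in HT vehicle mice, against 2131, 3317 and 4589 in WT lithium and 1354, 3441 and 4521 in WT vehicle mice. HT lithium was the low group and all groups overlapped. Arc fell by 0.79 ± 0.25 with lithium in HT-labelled mice (limma adjusted p = 0.0216) and differed by 0.16 ± 0.25 in WT-labelled mice (adjusted p = 0.791). The interaction was -0.95 ± 0.35 (SE; 95% interval -1.65 to -0.24; limma adjusted p = 0.647), with -1.03 in females and -0.87 in males. When each library was left out in turn it lay between -1.15 and -0.78. A fall in HT-labelled mice lowers the interaction, so that of Arc follows in part from how it was picked.

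Nr4a1, an orphan nuclear receptor, had 1287, 1740 and 2800 normalized reads in HT lithium and 1710, 2202 and 3238 in HT vehicle mice, against 1620, 2076 and 2427 in WT lithium and 1182, 2112 and 2538 in WT vehicle mice. The groups overlapped, with HT lithium lowest at the median. Its interaction was -0.56 ± 0.19 (limma adjusted p = 0.629), with -0.58 in females and -0.55 in males. Trib1, a pseudokinase that steers proteins to degradation, had the smallest p of the list and an interaction of -0.31 ± 0.10 (limma adjusted p = 0.622). Nab2, a corepressor of EGR factors, had one of -0.24 ± 0.09. Trib1, Nr4a1 and Nab2 also fell with lithium in HT-labelled mice (limma adjusted p = 0.0388, 0.0161 and 0.00834). This follows in part from how they were picked, since a fall in HT-labelled mice lowers the interaction. Fos, a subunit of the AP-1 factor, had an interaction of -0.58 ± 0.31 and Egr1, a zinc finger factor, one of -0.37 ± 0.24.

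**Figure D3:**
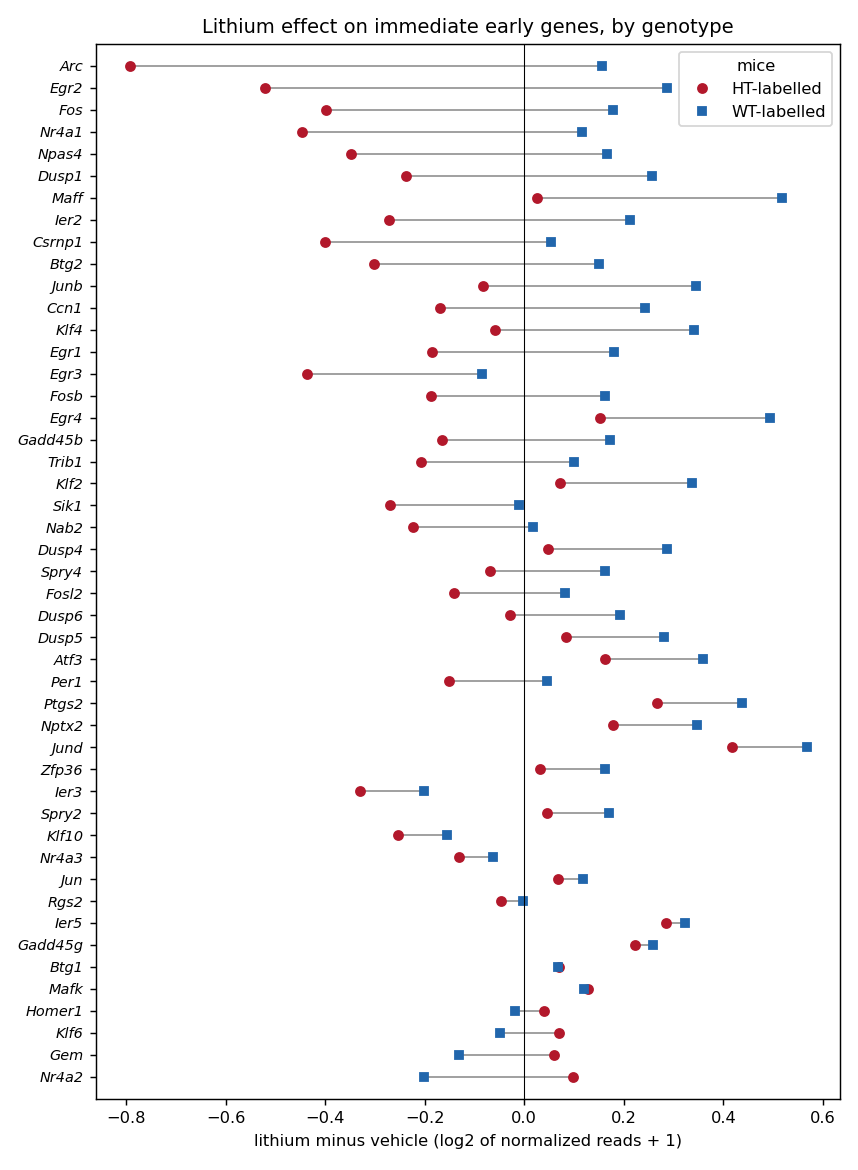
Lithium minus vehicle log2 difference (x axis) of 47 immediate early genes in HT-labelled mice (red circles) and WT-labelled mice (blue squares), ordered by interaction from Arc at the top to Nr4a2 at the bottom. The circle lies left of the square for 41 genes.

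A library score, the mean log2 deviation of the 47 genes from their mean over 38 libraries, showed how much single mice varied. In the list immediate early genes it ran from -0.27 to 0.30 with a median of -0.07 in HT lithium and from -0.15 to 0.32 with a median of -0.01 in HT vehicle mice. It ran from -0.11 to 0.24 with a median of 0.07 in WT lithium and from -0.34 to 0.16 with a median of -0.08 in WT vehicle mice. All 4 groups overlapped, and the highest HT lithium library, male 1, was the second highest of all 38. Without that library the list median was -0.32, and without HT lithium male 3 it was -0.20. Without the 3 libraries high in striatal markers it was -0.22, and with olfactory bulb and striatal scores as covariates -0.24.

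Promoters of immediate early genes often hold the cAMP response element, the site of the factor CREB, which couples synaptic activity to transcription. The letters TGACGTCA, which read the same on both strands, were searched from 250 bases before each gene's start in the RefSeq promoter windows of GRCm38.p6. Of 36 immediate early genes with a window 3 held it (8.33%), against 360 of 12680 genes tested (2.84%). The windows of those 3 genes are shown with the element in capitals, since they are the members of the list in which it was found.
Dusp1, chr17:26508592-26508631, minus strand: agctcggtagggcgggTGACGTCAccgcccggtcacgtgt
Maff, chr15:79347475-79347514, plus strand: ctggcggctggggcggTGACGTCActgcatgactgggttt
Btg2, chr1:134079298-134079337, minus strand: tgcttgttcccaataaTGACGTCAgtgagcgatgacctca
The element began 143 bases before the start of Dusp1, a phosphatase that ends MAP kinase signalling, 29 before that of Maff, a small Maf factor, and 166 before that of Btg2, an antiproliferative gene. Dusp1 had 495, 590 and 869 normalized reads in HT lithium and 493, 641 and 1083 in HT vehicle mice, against 549, 738 and 895 in WT lithium and 401, 686 and 805 in WT vehicle mice. All groups overlapped. Its interaction was -0.49 ± 0.20 (limma adjusted p = 0.647), that of Maff was -0.49 ± 0.26 and that of Btg2 was -0.45 ± 0.25. A match describes these letters only, and most members with negative interactions had no match in their windows.

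Most cholesterol synthesis genes had a positive interaction. Of 30 members 23 were above 0 (49.5% of all genes were), 5 had a positive interaction with an unadjusted p under 0.05 (3.73% of all genes) and 0 a negative one (2.95%), and the median was 0.08. Without HT vehicle female 3 the median was 0.052. The lithium difference had a median of 0.03 in HT-labelled mice, where 2 rose and 3 fell (8.25% and 8.03% of all genes did), and of -0.05 in WT-labelled mice, where 0 rose and 2 fell (4.34% and 3.13%). Idi1, the isomerase of the isoprenoid building block, had 1729, 2027 and 2296 normalized reads in HT lithium and 1615, 1984 and 2254 in HT vehicle mice, against 1405, 1944 and 2254 in WT lithium and 2033, 2222 and 2556 in WT vehicle mice. WT vehicle was the high group, and the other 3 covered one range. Idi1 fell by 0.25 ± 0.06 with lithium in WT-labelled mice (limma adjusted p = 0.00336). In HT-labelled mice it differed by 0.04 ± 0.06, for an interaction of 0.29 ± 0.08 (limma adjusted p = 0.497, 95% interval 0.13 to 0.46). A fall in WT-labelled mice raises the interaction, so that of Idi1 follows in part from how it was picked. Hmgcs1, which makes the precursor of mevalonate, had an interaction of 0.24 ± 0.09, Sqle, the squalene epoxidase, one of 0.20 ± 0.08, and Insig1, which holds the SREBP sensor in the endoplasmic reticulum, one of 0.17 ± 0.07. HT minus WT, the list had a median of -0.02 under lithium and of -0.11 under vehicle. Its interaction median was 0.12 in females, with 26 of 30 members above 0 (49.6% of all genes), and -0.01 in males, with 14 of 30 (50.4%). Markers of myelinating oligodendrocytes, which make much of the brain's cholesterol, had a median interaction of 0.21 in females and -0.19 in males, and their part in this difference was not tested.

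Most proteasome genes also had a positive interaction. Of 33 subunit genes 28 were above 0 (49.5% of all genes), 5 with a positive interaction at an unadjusted p under 0.05 (3.73% of all genes) and 0 with a negative one (2.95%), and the median was 0.05, and 0.025 without HT lithium female 4. With lithium 14 members rose and 0 fell in HT-labelled mice (median 0.08), where 8.25% of all genes rose. In WT-labelled mice 2 rose and 0 fell (median 0.01), where 4.34% of all genes rose. Psmd14, the deubiquitinase of the lid, had 1870, 2037 and 2367 normalized reads in HT lithium and 1696, 1828 and 2052 in HT vehicle mice, against 1676, 1905 and 2078 in WT lithium and 1810, 1975 and 2125 in WT vehicle mice. HT lithium was highest at the median, and all groups overlapped. Its interaction was 0.21 ± 0.06 (limma adjusted p = 0.497; 95% interval 0.09 to 0.33). Psma2, of the outer ring of the core particle, had one of 0.19 ± 0.07, Psmc6, an ATPase of the base, one of 0.11 ± 0.05, and Psmd12, of the lid, one of 0.12 ± 0.05. The median was 0.11 in females, with 29 of 33 above 0 (49.6% of all genes), and 0.02 in males, with 20 of 33 (50.4%). The list score was highest in 1 library, HT lithium female 4 at 0.23, and without it the median was 0.02.

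Protein folding genes held members on either side. Of 26 heat shock genes 15 were above 0 (49.5% of all genes), with 4 positive and 1 negative at an unadjusted p under 0.05 (3.73% and 2.95% of all genes) and a median of 0.07. That median was 0.021 without HT lithium male 4 and 0.046 without HT vehicle female 3. Hsp90aa1, the inducible cytosolic HSP90, had an interaction of 0.18 ± 0.06 (limma adjusted p = 0.593). Hspd1 and Hspa9, chaperones of the mitochondrial matrix, had 0.13 ± 0.05 and 0.12 ± 0.05, and Dnaja1, an HSP70 cochaperone, had 0.11 ± 0.05. Among 35 genes of the unfolded protein response 20 were above 0 (49.5% of all genes), with a median of 0.015. The lectin chaperone gene Canx had an interaction of 0.14 ± 0.05 and Hsp90b1 one of 0.09 ± 0.05, while Creld2, a secreted stress factor gene, had one of -0.20 ± 0.10.

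**Figure D4:**
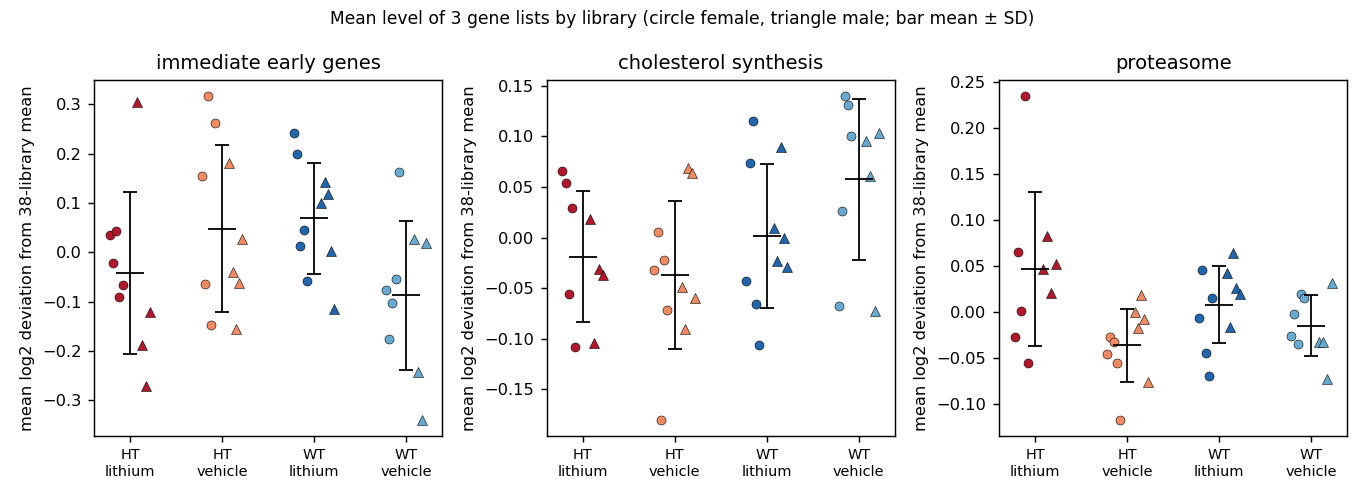
Mean log2 deviation of immediate early, cholesterol synthesis and proteasome genes from their mean over 38 libraries (y axes), by library, in HT lithium, HT vehicle, WT lithium and WT vehicle mice, with circles for females, triangles for males and bars for mean and SD. In each panel the 4 groups overlap, and the highest proteasome score is that of HT lithium female 4 at 0.23.

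Genes of the pathways that lithium is known to act on were read as 2 lists, inositol metabolism and WNT with GSK3. Of 29 inositol metabolism genes 16 were above 0 (49.5% of all genes), with a median of 0.006. Impad1, a lithium-sensitive phosphatase of the inositol monophosphatase family, had an interaction of 0.14 ± 0.06 (limma adjusted p = 0.671), and Itpkb, an inositol trisphosphate kinase, one of -0.17 ± 0.08. Of 41 WNT and GSK3 genes 26 were below 0 (50.5% of all genes), with 4 negative and 1 positive at an unadjusted p under 0.05, which is 12.2% of the list against 6.67% of all genes. The list median was -0.05, with -0.09 in females and 0.00 in males. It was -0.024 without HT lithium female 2, -0.025 without WT vehicle female 3 and -0.070 without WT lithium male 1. Axin2, a feedback inhibitor and common readout of beta-catenin signalling, had 654, 686 and 759 normalized reads in HT lithium and 740, 809 and 973 in HT vehicle mice, against 638, 756 and 842 in WT lithium and 705, 753 and 865 in WT vehicle mice. The HT groups overlapped in their outermost libraries only. It fell by 0.24 ± 0.05 with lithium in HT-labelled mice (limma adjusted p = 0.0004) and differed by -0.05 ± 0.05 in WT-labelled mice. The Axin2 interaction was -0.19 ± 0.07 (limma adjusted p = 0.647), with -0.37 in females and 0.00 in males. A fall in HT-labelled mice lowers the interaction, so that of Axin2 follows in part from how it was picked. Wnt10a, a WNT ligand, rose in WT-labelled mice by 0.51 ± 0.09 (limma adjusted p = 0.000134) and had an interaction of -0.29 ± 0.13. Notum, a secreted enzyme that inactivates WNT ligands, had one of -0.35 ± 0.16. Wnt10a was picked in the same way as Axin2, and a rise in WT-labelled mice also lowers the interaction. Sp5, a transcriptional target of beta-catenin, had an interaction of -1.18 ± 0.43 at no more than 15.8 normalized reads in any library, so that its value rests on few reads.

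Genes of the mTOR pathway, of Tanc scaffolds and of glutamate receptors had list medians near 0. Of 46 mTOR and TSC genes 28 were below 0 (50.5% of all genes). At an unadjusted p under 0.05, 4 were negative and 1 was positive (2.95% and 3.73% of all genes). Together this is 10.9% of the list against 6.67% of all genes. The mTOR and TSC median was -0.03, and -0.018 without WT vehicle female 2. Eif4e, the cap binding factor of translation, had an interaction of 0.13 ± 0.05. Ulk1, the kinase that starts autophagy, had one of -0.12 ± 0.05, Rps6kb2, a ribosomal S6 kinase, one of -0.23 ± 0.09 and Tsc2, of the complex that restrains mTOR, one of -0.09 ± 0.04. Of 22 Tanc scaffolds and partners 10 were above 0 (49.5% of all genes) and the median was -0.007. Rap2c, a small GTPase of a family known to act with Tanc2 kinase partners, had an interaction of 0.18 ± 0.06 (limma adjusted p = 0.559), and the postsynaptic scaffold Shank3 one of -0.17 ± 0.10. Of 37 glutamate receptor genes 22 were above 0 (49.5% of all genes), and the median was 0.007. At an unadjusted p under 0.05, 4 were positive and 2 negative (3.73% and 2.95% of all genes). Together this is 16.2% of the list against 6.67% of all genes. Grin3a, an NMDA receptor subunit of young synapses, had 1555, 1828 and 2506 normalized reads in HT lithium and 1393, 1606 and 1906 in HT vehicle mice, against 1512, 1620 and 2120 in WT lithium and 1483, 1713 and 2029 in WT vehicle mice. The groups overlapped, and HT lithium was highest at the median. Its interaction was 0.29 ± 0.09 (limma adjusted p = 0.537), and it rose with lithium by 0.24 ± 0.06 in HT-labelled mice. A rise there raises the interaction, so that of Grin3a follows in part from how it was picked. Neto2, an auxiliary subunit of kainate receptors, had an interaction of 0.19 ± 0.07 and the metabotropic receptor gene Grm5 one of 0.14 ± 0.06, while the NMDA receptor subunit gene Grin2c had one of -0.27 ± 0.11.

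Cell type markers were read beside these values, because in bulk tissue fewer cells of a type and less RNA per cell cannot be told apart. Astrocyte markers were below 0 in 23 of 30 members (50.5% of all genes), 4 of them at an unadjusted p under 0.05 (2.95% of all genes), with a median of -0.07. The median was -0.14 in females, with 27 of 30 below 0 (50.4% of all genes), and -0.01 in males, with 17 of 30 (49.6%). Over both sexes it was -0.045 without WT lithium male 2. Among them Fgfr3, a growth factor receptor, had -0.22 ± 0.07 and Ntsr2, a neurotensin receptor, -0.22 ± 0.09. Cldn10, a claudin, had -0.22 ± 0.10 and Aldoc, the astrocytic aldolase, -0.14 ± 0.07. Astrocyte scores ran from -0.10 to 0.19 in HT lithium, from -0.17 to 0.09 in HT vehicle, from -0.15 to 0.20 in WT lithium and from -0.13 to 0.14 in WT vehicle mice. Deep layer neuron markers were above 0 in 21 of 25 members (49.5% of all genes), with a median of 0.13. Among them 0 had an unadjusted p under 0.05 (6.67% of all genes). In females 23 of 25 were above 0 and in males 11 of 25 (49.6% and 50.4% of all genes). Upper layer markers had a median of -0.03. The part of these markers in the interactions of other genes was not tested.

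Females and males were fitted as separate groups and share no library. In each sex 0 genes passed by limma. At an unadjusted p under 0.05 there were 1259 genes in females (7.02%) and 495 in males (2.76%), the sex with 4 HT lithium and 4 WT vehicle mice. Of the 1259 genes 834 had the same sign in males (66.2%), against 56.1% of all genes. An unadjusted p under 0.05 in males was reached by 45 with the same sign (3.57%) and by 11 with the opposite sign. Over all genes these counts were 305 (1.70%) and 190. Of the 495 genes picked in males 61.6% had the same sign in females. Across all genes the interactions of both sexes correlated at r = 0.053. The difference between sexes, female minus male, passed for 0 genes, with 530 at an unadjusted p under 0.05 (2.96%). Prkd2, the kinase protein kinase D2, had an interaction of -0.78 ± 0.19 in females and 0.27 ± 0.20 in males. Calcrl, the receptor of adrenomedullin on endothelium, had one of -0.46 ± 0.17 in females and 0.54 ± 0.18 in males. Cybb, the NADPH oxidase subunit of phagocytes, had one of -0.53 ± 0.32 in females and 1.27 ± 0.34 in males, at no more than 46.1 normalized reads in any library. The limma adjusted p of these differences was 1.

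Several marker lists differed in sign between the sexes. Striatal markers had a median interaction of 0.47 in females, with all 26 above 0 (49.6% of all genes). In males it was -0.35, with 23 of 26 below 0 (49.6% of all genes). HT lithium female 2 and WT lithium males 1 and 3 hold the high striatal scores. The part of these libraries in the values of any list by sex was not tested. The striatal neurons score ran from -0.30 to 1.65 in HT lithium, from -0.38 to -0.17 in HT vehicle, from -0.17 to 1.61 in WT lithium and from -0.26 to 0.27 in WT vehicle mice. Deep layer markers had medians of 0.29 in females and -0.03 in males. Endothelial markers had -0.22 in females and 0.07 in males, and markers of meninges and choroid plexus had -0.28 in females and 0.21 in males. Immediate early genes, heat shock genes and proteasome genes had medians of the same sign in both sexes. This was not particular to them, since other lists did too, such as interferon response genes at -0.13 in females and -0.09 in males.

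**Figure D5:**
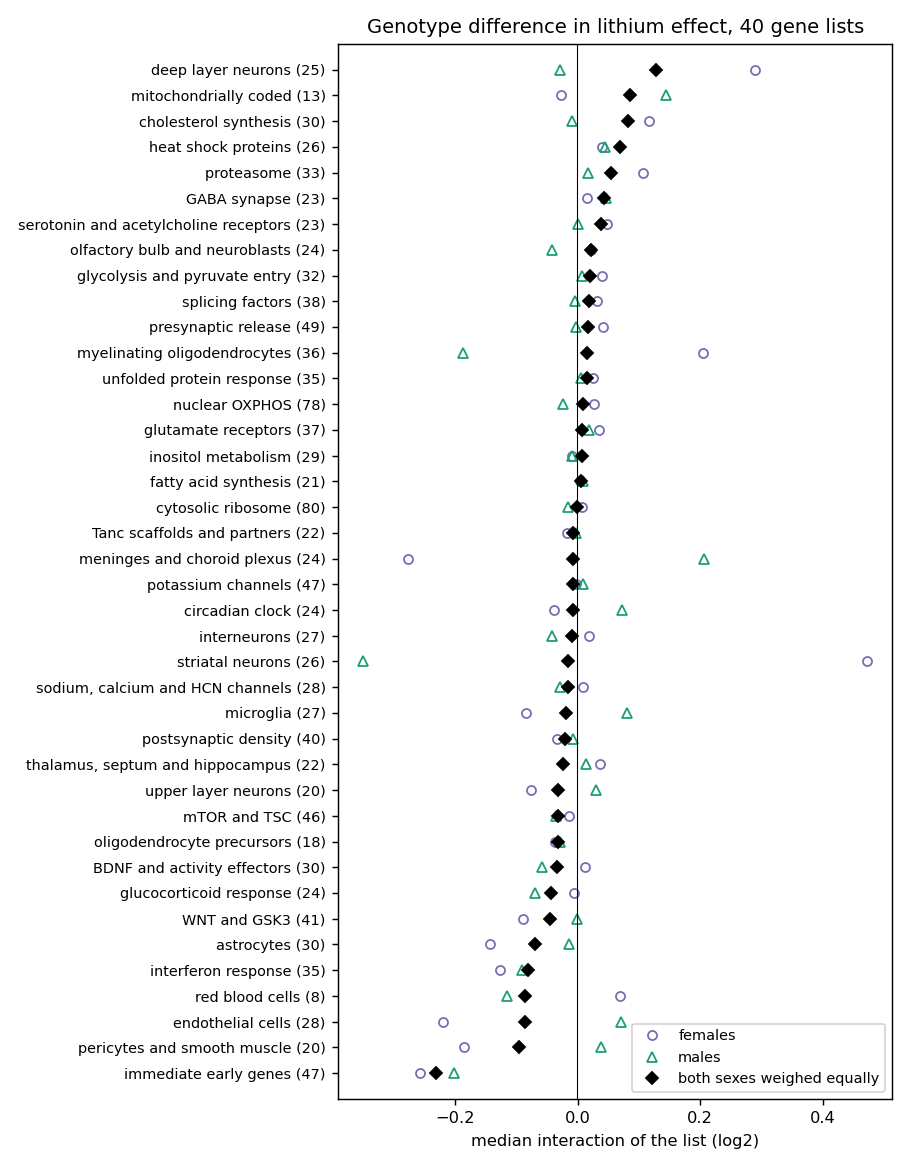
Median interaction (x axis, log2) of 40 gene lists, with the number of genes tested in brackets, for both sexes weighed equally (black diamonds), females (open circles) and males (open triangles). Immediate early genes lie lowest at -0.23 with both sexes close by, and striatal neuron markers spread most, at 0.47 in females and -0.35 in males.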

How the data were processed

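The authors deposited one table for 18088 Ensembl genes whose signal is a normalized count, the reads of a gene after division by the library's size factor. Per the submitters' processing notes the tools were Salmon 0.11.2, R 3.6.0 and DESeq2 1.19.11 with the build GRCm38; their options are not given in the sources used here. Libraries were made with a strand-specific kit from polyadenylated RNA, per the labels' protocols. Size factors assume that most genes do not change, so a general shift in RNA content would not be seen, and how reads of near-identical genes were shared out is uncertain.

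Values were whole multiples of a step within each column, so that whole reads were recovered within 0.01; in 11 columns the step lies near 1, where rounded values would look the same. The share of values that came out whole was 100%. Because the values are normalized, the main test was limma 3.58.1 (R 4.3.3) with a trend, on log2(value + 1). A fold change on that scale understates the change of low genes. All 58 libraries entered one fit of 12 groups of genotype, drug and sex, p-values were two-sided and Benjamini-Hochberg adjusted over 17925 genes within a comparison, and ± is an SE unless SD is named. The alternatives were edgeR 4.0.16 and DESeq2 1.42.0 on recovered reads, other filters and pseudocounts, quantile normalization, fewer libraries, sex as an additive term, surrogate variables (sva 3.50.0), each sex alone, a replicate block and leaving out each library.

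Genes were named by rule: Tanc2, the 10 with the smallest interaction p in each direction, 5 for the averaged lithium effect, 3 for the sexes, with a mean of 20 or more, and, for a list that is described, at most 4 members with the smallest p; predicted gene models and pseudogenes named as such were passed over. Fos, Egr1, Dusp1, Maff, Btg2 and the pseudogenes called by DESeq2 were added after their values were seen. The genes, lists and tests were chosen with earlier results of these data known. The script was tested on simulated counts. Gene positions came from the GENCODE annotation of GRCm38, with symbols for 18077 identifiers. Promoters came from RefSeq. No 2 libraries agreed within sampling noise (703 pairs, smallest chi-square per degree of freedom 3.04).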

Additional observations from a re-analysis of the deposited data

Results flagged for a closer look

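In 681 groups of 4 or 5 libraries, counted over the genes and lists named here, 41 held a library whose distance from the nearest other one was large against the range of its group; chance flags about 1 in 20 groups. All values are normalized reads, with that of the nearest library of the group after it.

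In HT lithium females, Dnaja1 in mouse 5 was lowest at 8298, with the next at 9063, Axin2 in mouse 2 was highest at 739, with the next at 686 and Wnt10a in mouse 2 was highest at 164, with the next at 133. There also, Gm12671 in mouse 2 was highest at 2927, with the next at 0 and Rps13-ps1 in mouse 3 was lowest at 0, with the next at 105.

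In HT lithium males, Notum in mouse 1 was highest at 92.2, with the next at 84.5.

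In HT vehicle females, Arhgap17 in mouse 3 was highest at 528, with the next at 493, Ppp1r12c in mouse 2 was highest at 3006, with the next at 2669 and Hmgcs1 in mouse 3 was lowest at 8109, with the next at 10496. There also, Psma2 in mouse 3 was highest at 2175, with the next at 1983, Eif4e in mouse 2 was lowest at 2912, with the next at 3151 and Impad1 in mouse 2 was lowest at 3817, with the next at 4383. There also, Rap2c in mouse 2 was lowest at 905, with the next at 1062, Fgfr3 in mouse 5 was lowest at 2532, with the next at 2768 and Gm10222 in mouse 2 was highest at 17078, with the next at 0. There also, Rps13-ps1 in mouse 2 was highest at 114, with the next at 0.

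In HT vehicle males, Tanc2 in mouse 2 was lowest at 7766, with the next at 8380, Taf15 in mouse 1 was lowest at 1169, with the next at 1345 and Trib1 in mouse 1 was highest at 730, with the next at 618. There also, Gm12671 in mouse 4 was highest at 3010, with the next at 0 and Gm10222 in mouse 5 was highest at 4372, with the next at 0.

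In WT lithium females, Dars in mouse 3 was lowest at 1027, with the next at 1173, Calcrl in mouse 4 was highest at 244, with the next at 192 and Itpkb in mouse 4 was highest at 900, with the next at 678. There also, Rps13-ps1 in mouse 4 was lowest at 0, with the next at 123 and Egr1 in mouse 5 was lowest at 4524, with the next at 5876.

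In WT lithium males, Gng10 in mouse 5 was lowest at 714, with the next at 859, Cox5b in mouse 3 was highest at 5444, with the next at 4536 and H1fx in mouse 3 was highest at 476, with the next at 417. There also, Shank3 in mouse 3 was highest at 9598, with the next at 8115 and Egr1 in mouse 1 was highest at 8376, with the next at 6230.

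In WT vehicle females, Npm1 in mouse 3 was lowest at 2894, with the next at 3116, Slc39a13 in mouse 5 was lowest at 454, with the next at 479 and Ptpn1 in mouse 1 was highest at 1832, with the next at 1667. There also, Sp5 in mouse 2 was lowest at 1.92, with the next at 6.5.

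In WT vehicle males, Tanc2 in mouse 3 was lowest at 6961, with the next at 7782, Rpl37rt in mouse 4 was lowest at 310, with the next at 364 and Cox5b in mouse 1 was highest at 3773, with the next at 3488. There also, Gm12671 in mouse 4 was lowest at 0, with the next at 1164.

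The score of striatal neuron markers was highest at 1.65 in HT lithium female 2, with the next at 0.157, and that of the interferon response at 1.38 in HT vehicle male 1, with the next at -0.0973. No explanation of these values was tested.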

How the results depend on the processing

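Across 38 fits without 1 library each, interaction calls stayed at 0 (smallest adjusted p between 0.0525 and 0.575) and unadjusted calls ran from 940 to 1477. DESeq2 called 4 genes: Cbx7 (-0.26, adjusted p = 0.00954) and the pseudogenes Gm12671 (29.4, adjusted p = 1.09e-07), Rps13-ps1 (-23.2, adjusted p = 0.000115) and Gm10222 (-13.6, adjusted p = 0.00207), which are at 0 in many libraries. With 2 surrogate variables 2 genes passed, Cbx7 and Npm1, with 1877 unadjusted calls and 2215 lithium calls in WT-labelled mice, and with olfactory bulb and striatal scores as covariates 1 passed, Cbx7; that alternative and the one without 3 libraries high in striatal markers, which left 861 lithium calls in WT-labelled mice, were chosen after seeing the data. In females alone 2014 genes passed for averaged lithium, 1228 in HT-labelled and 280 in WT-labelled mice, with medians of 0.289 for deep layer, -0.22 for endothelial and 0.473 for striatal markers. In males alone these calls were 1733, 536 and 177, with 495 unadjusted interaction calls and medians of 0.072 for circadian clock, -0.0095 for cholesterol synthesis, -0.029 for deep layer, 0.071 for endothelial and 0.038 for pericyte genes. Lithium calls without 1 library each ran from 3998 to 4479 averaged, 2216 to 2961 in HT-labelled and 934 (without WT lithium male 3) to 1620 in WT-labelled mice. Interactions near 0 changed sign: Scand1 (0.011 with quantile normalization, 0.039 in females, 0.034 without the 3 libraries, -0.064 to 0.048 without 1 each), Cox5b (0.010 in females, 0.0072 without the 3 libraries, -0.066 to 0.0077 without 1 each) and Tanc2 (-0.038 to 0.026 without 1 each). The genes named for the difference between the sexes, which passed for none, did so too, as that pick favours. Calcrl was -0.46 and Cybb -0.53 in females, and Prkd2 was 0.27 in males. Without 1 library each Calcrl ran from -0.0071 to 0.084. The pseudogene Gm10222 was 0.91 in females and ran from -1.56 to 0.89 without 1 library each. The cause was not tested. Same-numbered libraries of different groups did not deviate together at the median (r = -0.004 over 127 pairs, 26 over 0.1). For pairs with different numbers the median r was 0.004, and 6 of 38 libraries correlated best with their own number. Such medians cannot exclude that some libraries are paired. The numbers are those of the titles, which differ in part from the library names in WT vehicle males. With this number as a replicate block 0 genes passed for the interaction, with 1088 unadjusted calls. With 4 to 5 mice per group and sex the median SE was 0.0998, and Cbx7 at about -0.26 with an SE of 0.05 did not pass by limma, so smaller differences, or equal ones with larger errors, could be missed; the effect of depth was not tested.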

Other observations

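Nuclear-coded oxidative phosphorylation genes, which make the respiratory chain, had a median of 0.009, and lithium differences of 0.14 in HT-labelled mice, with 41 of 78 members risen (8.25% of all genes), and 0.15 in WT-labelled mice, with 32 risen (4.34% of all genes). Cytosolic ribosome genes had a median of -0.002, with 29 of 80 risen in HT-labelled and 24 in WT-labelled mice, against the same shares of all genes. Both sets of lithium differences run alongside the presence of Gm10221 reads, from which the drug cannot be told apart within a genotype. Genes of BDNF signalling and activity effectors had a median of -0.03, with 7 of 30 risen in HT-labelled mice (8.25% of all genes) and 8 in WT-labelled mice (4.34%), so that this list did not share the sign of the immediate early genes in HT-labelled mice, where its median was 0.11. Glucocorticoid response genes had a median of -0.04, GABA synapse genes one of 0.04 and presynaptic release genes one of 0.02. Farther from 0 were the 13 mitochondrially coded genes at 0.08, with 10 above 0 (49.5% of all genes), and markers of pericytes and smooth muscle at -0.09 and of red blood cells at -0.09. None of these 3 lists had a member with an unadjusted p under 0.05, and without HT lithium male 4 the mitochondrially coded median was 0.018. Without single libraries the median of pericytes and smooth muscle reached -0.050 (without WT lithium male 2), and that of red blood cells ran from -0.216 (without WT vehicle male 2) to 0.025 (without WT vehicle male 3).

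Interferon response genes had a median interaction of -0.08 with 0 of 35 members at an unadjusted p under 0.05, and one of 0.021 without HT vehicle male 1 and 0.0074 without HT lithium male 4. Their list score reached 1.38 in HT vehicle male 1. The score of olfactory bulb and neuroblast markers ran from -1.03 to 0.81 in HT lithium, from -1.29 to 1.005 in HT vehicle, from -1.15 to 1.11 in WT lithium and from -1.27 to 0.80 in WT vehicle mice, a wide spread within every group, and its interaction median was 0.02.

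The pseudogene Gm12671 had 0, 0 and 3356 normalized reads (lowest, median and highest library) in HT lithium, 0, 0 and 3010 in HT vehicle, 0, 0 and 1310 in WT lithium and 0, 2336 and 3516 in WT vehicle mice. Gm10222 had 909, 16888 and 20274 in HT lithium, 0, 0 and 17078 in HT vehicle, 3211, 18347 and 21398 in WT lithium and 0, 0 and 12428 in WT vehicle mice. Values of pseudogenes that are 0 in some libraries and high in others depend on how near-identical reads were divided, which was not tested.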
